A study of Rattus norvegicus with 8 samples.

Results

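The messenger RNAs of lung tumors induced by the tobacco nitrosamine NNK were compared with those of normal lung from the same treatment group. The transcripts were chosen by their probes: of the 24684 probes of the Arraystar rat lncRNA array, 15323 carry a RefSeq mRNA accession, and they measured 15313 of the array's 24674 transcripts, or 14937 genes. Of the 8 arrays of the series, 6 entered the comparison: normal lung arrays 1 to 3 and lung tumor arrays 1 to 3. The tissues came from male F344 rats that had been given NNK (4-(methylnitrosamino)-1-(3-pyridyl)-1-butanone) and were taken at week 95. The study's methods describe each tumor as a moderately differentiated adenocarcinoma with a matched normal lung tissue. Both groups therefore carry the NNK exposure, lung of untreated rats was not compared, and a piece of tumor holds vessels, stroma and immune cells besides tumor cells. The study asked how lncRNA levels change in NNK-induced lung carcinogenesis, and compared tumor with matched lung as well as blood samples.

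Lung adenocarcinoma is a glandular cancer that often retains features of the secretory cells of the distal lung. In the alveolus, type 2 cells make surfactant and divide to renew the epithelium, while the flat type 1 cells cover most of the gas exchange surface and lie against a dense bed of capillaries. NNK becomes mutagenic after cytochrome P450 enzymes hydroxylate it, and the DNA adducts it leaves include O6-methylguanine, which the protein Mgmt removes.

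A gene's level is given as the log2 of the array's background-subtracted signal after quantile normalization of the 6 arrays, in the order of arrays 1, 2 and 3 of a group. A probe was kept if its spots were well above background on 3 or more arrays, which left 11117 genes. Spots that the scanner software marked as non-uniform or as outliers were left out. They made up 4.07% to 7.93% of the mRNA spots above background on the normal arrays, against 18.2% to 29.5% on the tumor arrays. The marked spots were brighter than the rest, for example with a median log2 signal of 12.5 against 8.90 on tumor array 3. Because of this loss, 2696 of the 11117 genes could not be tested, and 8421 were tested. As an alternative, normexp background correction models signal and background together and adds an offset, and it drew the differences of dim genes closer to 0. Its log2 difference is given beside a tested gene, named as normexp, where it was clearly smaller or ended the call. A fit that keeps the marked spots covered all 11117 and is named wherever it is used.

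The arrays of a group were close to each other. The distance of a pair of arrays was taken as the mean squared difference over the variance of the spot noise, after removal of a trend with signal. It was read on probes with 3 spots, 1766 to 2628 per pair. As 15283 of the 15323 mRNA probes have 1 spot, nearly all of these were not mRNA probes. This ratio was 0.816 to 1.37 among the 3 normal arrays and 0.582 between tumor arrays 2 and 3. Between tumor array 1 and tumor arrays 2 and 3 it was 6.23 and 6.43, and between a tumor and a normal array 23.9 to 33.7. The normal arrays, and tumor arrays 2 and 3, were thus also counted as 1 sample each in a second fit, in which the single normal sample is assumed to vary like the tumors. The p values measure the spread between these arrays, which may be technical. The file headers gave 1 scan time for the normal arrays and tumor array 1 and another for tumor arrays 2 and 3. No spot was saturated, and 72.3% to 76.5% of the mRNA probes were well above background on an array. The surfactant genes Sftpa1 and Sftpb and the club cell secretoglobin Scgb1a1, which mark lung epithelium, lay above 17 on the log2 scale on all 6 arrays.

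Of the 8421 tested genes, 969 (11.5%) were up-regulated and 1415 (16.8%) were down-regulated in the tumors. The counts of called genes in each list below are to be read against these shares. A gene was called where limma, fitted without pairing of the arrays, gave an adjusted p of at most 0.05 and the change was 2-fold or more. The changes reached 4-fold in 310 of the up-regulated and 610 of the down-regulated genes, and 8-fold in 95 and 212. Tumor and normal arrays did not overlap for 966 of the 969 and for 1413 of the 1415. On these close arrays non-overlap was common: 37.0% of all tested genes lay wholly higher in the tumors and 37.1% wholly lower. With the marked spots kept, 1297 (11.7%) of 11117 genes were up-regulated and 1693 (15.2%) down-regulated. In probes, 997 were higher and 1451 lower, and with the near-identical arrays counted as 1 sample these counts fell to 500 and 725. On tumor array 1 alone, which shared its scan time with the normal arrays, 865 of 961 up-regulated genes (90.0%) and 1193 of 1397 down-regulated genes (85.4%) were at least 2-fold from the normal mean in the same direction. That array was part of the fit that made the calls, which favours this result, and over all 8283 tested genes with a value on it 13.4% exceeded the normal mean 2-fold or more and 15.9% fell short of it by as much. The plot of mean tumor against mean normal level shows these genes on both sides of a dense diagonal.

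**Figure D1:**
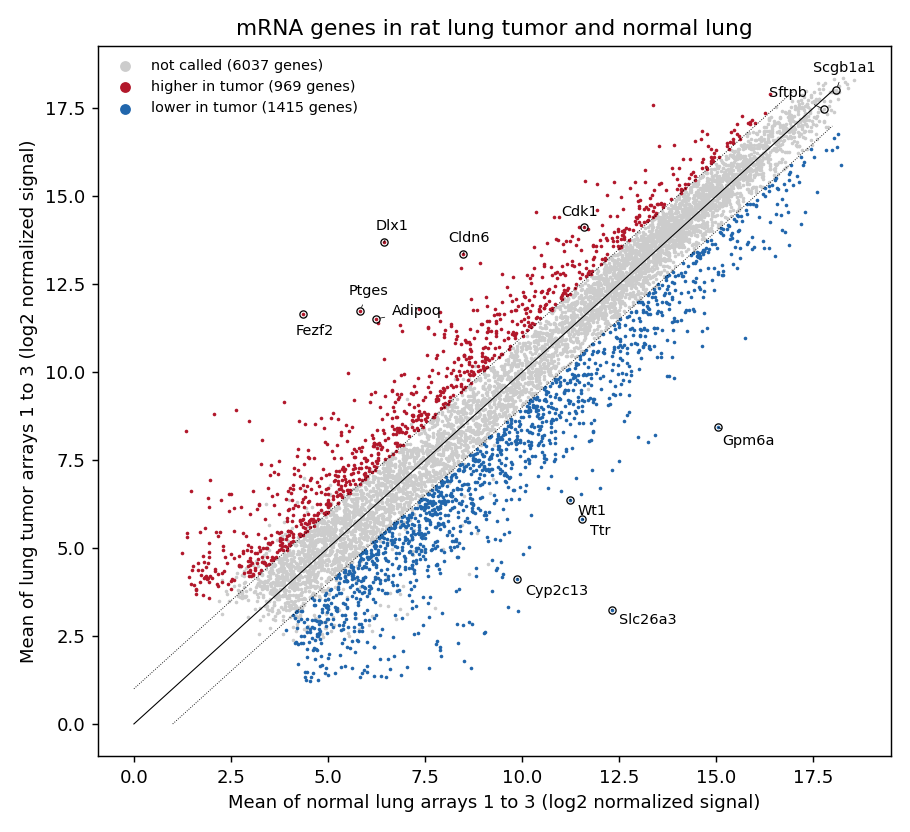
Mean log2 signal of each tested gene on the 3 normal lung arrays (x axis) and the 3 lung tumor arrays (y axis), with dotted lines at a 2-fold difference. The 969 up-regulated genes lie above the diagonal and the 1415 down-regulated genes below it, and Fezf2, Dlx1, Gpm6a and Slc26a3 lie far from it.

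The largest rises included transcription factors of other tissues. Fezf2, a zinc finger transcription factor of the developing forebrain, measured 4.98, 4.05 and 4.05 in normal lung and 11.78, 11.70 and 11.51 in the tumors (log2 difference 7.30 ± 0.28 SE, adjusted p = 1.58e-05, normexp 5.20). The homeobox gene Dlx1 measured 6.34, 6.43 and 6.54 in normal lung and 13.52 and 13.86 on tumor arrays 1 and 2, the spot on tumor array 3 being left out (7.25 ± 0.13, adjusted p = 9.03e-06, normexp 6.43). Zscan10, a zinc finger gene of pluripotent cells, measured 7.48, 7.19 and 7.41 against 11.98, 11.70 and 11.75 (4.45 ± 0.11, adjusted p = 5.7e-06). In each of these 3 genes every tumor value lay at least 4 log2 units above every normal value. Among secreted and membrane proteins, the adipokine gene Adipoq measured 6.29, 6.23 and 6.25 against 11.63, 11.46 and 11.48 (5.27 ± 0.07, adjusted p = 2.33e-06, normexp 4.50). Retnla, a small secreted protein induced in type 2 inflammation, was already bright in normal lung at 13.49, 13.32 and 13.35 and reached 17.64, 17.54 and 17.62 (4.21 ± 0.07, adjusted p = 3.52e-06). Other rises above 3.9 log2 units were in Entpd3, which splits extracellular nucleotides, the calcium channel Trpv6 (normexp 2.39), the protocadherin Fat2 (normexp 3.13), the immunoglobulin-domain protein Vsig2 and the junction regulator Inava. Pls1, an actin-bundling protein of microvilli, measured 6.64, 6.80 and 7.26 against 9.63, 11.84 and 12.03, so that tumor array 1 stood below the other two. Its adjusted p was 0.00315, and 0.131 with near-identical arrays counted as 1 sample.

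For 146 of the up-regulated and 103 of the down-regulated genes, 1 group had no array well above background. Their difference is given as a lower bound, which sets the brighter group's mean against, on each array of the other group, the higher of the gene's own signal and the dimmest signal still well above background. Such genes passed the filter on dim probes through the brighter group alone and so had to differ, and their adjusted p-values are given as a description. They are also included in the list counts below. By this bound the synaptic organizer Cbln4 was at least 34.1-fold higher in the tumors (adjusted p = 9.53e-05, normexp 2.97), the metalloproteinase Adamts19 at least 31.2-fold (adjusted p = 4.87e-05, normexp 2.92) and Tescl at least 26.9-fold (adjusted p = 1.75e-05, normexp 2.42). The melanotransferrin gene Meltf was at least 12-fold higher (adjusted p = 4.81e-06, normexp 1.54). On the lower side, the cytochrome Cyp2c7 was at least 55.5-fold lower (adjusted p = 0.000155, normexp -3.04), and the homeobox gene Nanog, known from pluripotent cells, at least 46.5-fold lower (adjusted p = 1.7e-06, normexp -2.94). Nanog measured 8.77, 8.70 and 8.64 in normal lung and 1.65, 1.5 and 1.61 in the tumors. After normexp background correction these genes remained called, with differences that were smaller than the bounds. The tumor values of Nanog lay below the detection limit, so their exact distance from normal lung is not known.

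The alveolar epithelium changed unevenly. Of 16 tested type 2 markers, 6 (37.5%) rose and 0 fell, with a median difference of 0.78 against 0.00 over all genes, while of 16 tested type 1 markers 0 rose and 10 (62.5%) fell, with a median of -1.39 (1 rose without tumor array 3, normal array 1 or normal array 3). The surfactant proteins did not pass the 2-fold threshold: Sftpa1 measured 18.59, 18.59 and 18.52 against 18.41, 18.26 and 18.26 (-0.26 ± 0.07), Sftpb 17.86, 17.81 and 17.67 against 17.47, 17.52 and 17.45 (-0.30 ± 0.07), and Sftpd 17.45, 17.42 and 17.49 against 17.83, 17.81 and 17.81 (0.36 ± 0.05). The differences were smaller than 2-fold although the groups did not overlap. Sftpc, the surfactant protein made by type 2 cells alone, was testable only with marked spots kept, and there it measured 15.12, 15.27 and 15.24 against 16.54, 16.23 and 16.28 (1.14, adjusted p = 0.000258). The 6 type 2 markers that rose were Lpcat1, which remodels surfactant phosphatidylcholine, the lysosomal protease Ctsh, the transcription factor Cebpa, the invariant chain Cd74, the chitinase-like protein Chi3l1 and the secreted protein Egfl6. Lpcat1 measured 15.56, 15.49 and 15.36 in normal lung and 16.98, 16.84 and 16.82 in the tumors (1.41 ± 0.08, adjusted p = 5.54e-05). Egfl6 measured 13.92, 13.86 and 13.99 against 15.96, 16.69 and 16.72 (2.53 ± 0.22, adjusted p = 0.000294). Counted with near-identical arrays as 1 sample, 2 of the type 2 markers remained up-regulated, and Egfl6 and Chi3l1 were no longer called. Cebpa was no longer called (0.35) after normexp background correction. Chi3l1 is also a member of the macrophage list and Cd74 of the list of MHC class II presentation, so neither belongs to type 2 cells alone.

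Among type 1 markers the falls were larger. Gpm6a, a membrane glycoprotein also made by mesothelium, fell the most of all genes well above background on the 6 arrays, from 15.02, 15.07 and 15.08 to 8.55, 8.43 and 8.30 (-6.63 ± 0.08, adjusted p = 1.83e-06). The matrix proteoglycan Spock2 measured 16.47, 16.56 and 16.55 against 13.34 and 13.26, the spot on tumor array 3 being left out (-3.23 ± 0.07, adjusted p = 1.26e-05). Akap5, a kinase anchor, measured 13.15, 13.14 and 13.17 against 10.78, 10.80 and 10.88 (-2.33 ± 0.05, adjusted p = 4.83e-06). All tumor values of these genes lay below all normal values. Ager, the receptor that marks type 1 cells most widely, measured 18.13, 18.14 and 18.18 against 16.91, 16.71 and 16.70 (-1.37 ± 0.08, adjusted p = 5.11e-05), and was not called with near-identical arrays counted as 1 sample. The caveolae protein Cav1, the homeodomain protein Hopx and the chloride channel protein Clic5 also fell, with log2 differences of -2.33, -1.41 and -1.68. Type 1 cells are also a source of Vegfa, the main growth factor of capillaries, which measured 18.01, 18.07 and 18.01 against 16.66, 16.68 and 16.68 (-1.36 ± 0.05, adjusted p = 1.32e-05). In the counted-once fit 7 of the 10 type 1 falls remained.

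Most of the tested secretory airway genes rose. Of 8 tested club and mucous cell genes 6 (75%) rose and 1 fell, with a median difference of 2.55. Bpifa1, an antibacterial protein of airway secretions, measured 13.56, 13.53 and 13.53 in normal lung and 16.52, 16.42 and 16.38 in the tumors (2.90 ± 0.06, adjusted p = 4.18e-06). Its relative Bpifb1 was not above background in normal lung and was at least 18.8-fold higher in the tumors (adjusted p = 1.52e-05, normexp 2.08). Clca1, a secreted protein of goblet cells, measured 6.24, 5.95 and 6.04 against 9.30, 9.09 and 9.06 (3.07 ± 0.11, adjusted p = 1.24e-05, normexp 2.30). All tumor values of Clca1 lay more than 2 log2 units above the normal ones. Cyp2f4, a club cell cytochrome, rose by a smaller 1.08 ± 0.06 (adjusted p = 4.08e-05), a call lost when near-identical arrays were counted as 1 sample and after a 75th percentile shift in place of quantile normalization (0.90). Scgb1a1, the most abundant club cell product, measured 18.10, 17.99 and 18.21 against 18.08, 18.05 and 17.98 (-0.07 ± 0.08, adjusted p = 0.456). The retinal dehydrogenase Aldh1a1 was the member that fell (-1.74 ± 0.07, adjusted p = 2.03e-05). In 3 of the 6 that rose no normal array was above background, and 3 rises are left when a probe must be above background on all 6 arrays. Of 9 tested ciliated cell genes 1 (11.1%) rose and 2 (22.2%) fell, near the shares of all genes. Without tumor array 1 the counts were 2 and 4, and 0 and 1 of the calls remained in the counted-once fit.

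**Figure D2:**
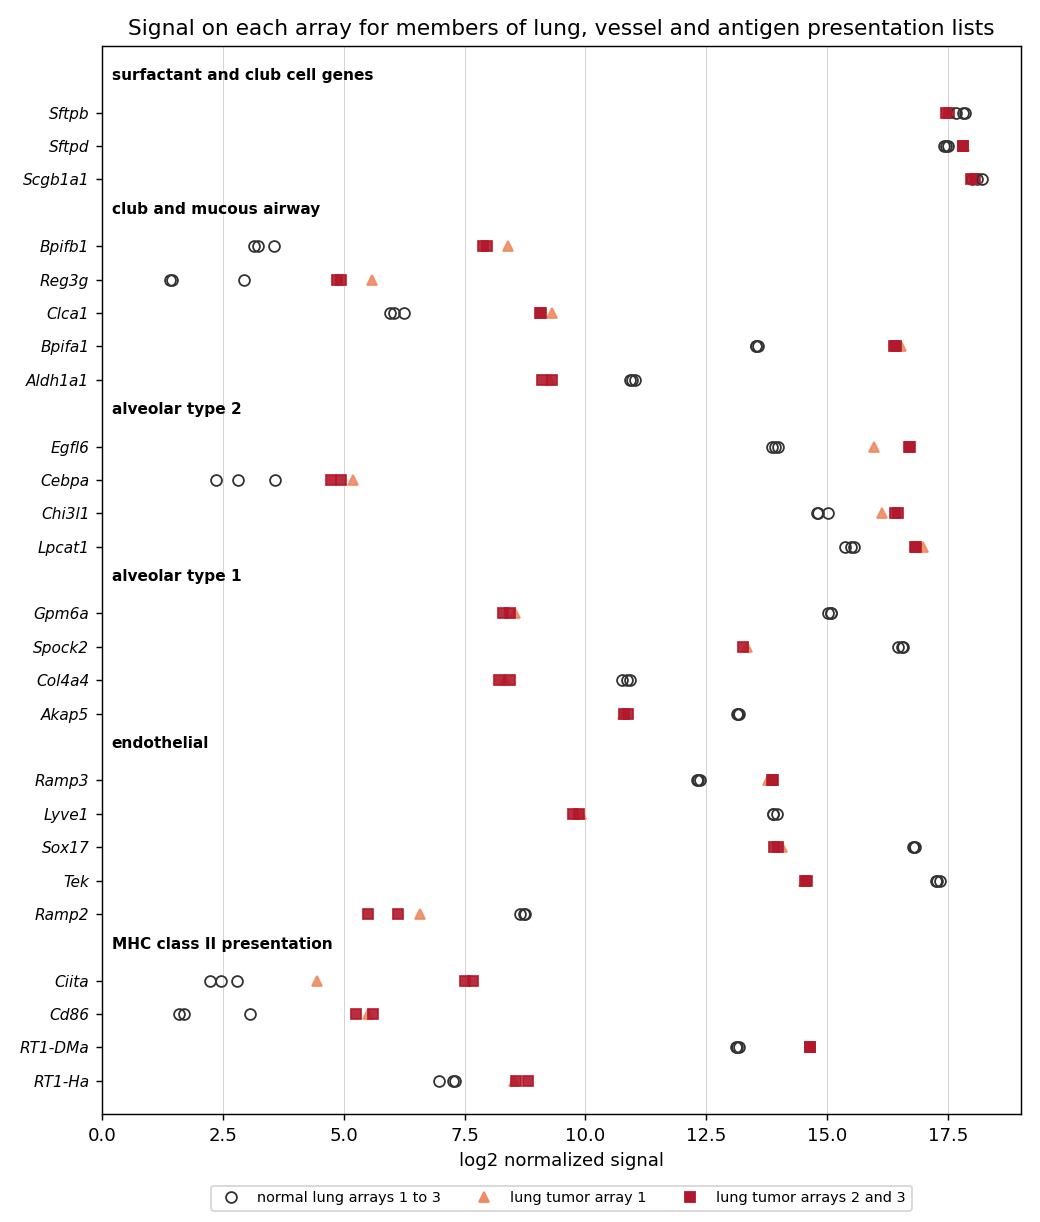
Log2 signal on each array for genes (rows) of 6 groups: surfactant and secretoglobin genes, other airway genes, type 2, type 1 and endothelial markers, and MHC class II genes (x axis, log2 signal; open circles, normal lung arrays; orange triangle, tumor array 1; red squares, tumor arrays 2 and 3). Sftpb and Scgb1a1 stay close to normal in the tumors, and Gpm6a drops from about 15 to about 8.

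Transcription factors of lung and endoderm were split, with 6 of 16 tested (37.5%) up-regulated and 3 (18.8%) down-regulated, the latter near the 16.8% of all genes, and 5 and 2 remained in the counted-once fit. The list also holds the forebrain factor Fezf2, which is 1 of the 6. Elf3 and Elf5, epithelial factors of the ETS family, rose by 2.44 ± 0.07 and 2.37 ± 0.06 (adjusted p = 6.23e-06 and 2.04e-05). Elf3 measured 10.54, 10.54 and 10.66 in normal lung and 12.96, 13.09 and 13.01 in the tumors. Nkx2-1, the lineage factor of lung epithelium, measured 17.22, 17.09 and 17.07 against 17.62, 17.42 and 17.48 and did not pass the threshold (0.38 ± 0.08). Sox17 and Gata4 fell, with log2 differences of -2.81 and -5.20, the latter -3.59 with normexp. Sox17 is also an endothelial factor and Gata4 a factor of mesothelium. Of 14 tested neuroendocrine genes 2 (14.3%) rose and 5 (35.7%) fell, against 11.5% and 16.8% of all genes, so the share that rose was near that of all genes. Without tumor array 1 or 2 there were 0 rises, and without normal array 2 or 3 there was 1. Uchl1, a ubiquitin hydrolase of neurons and neuroendocrine cells, measured 9.94, 9.75 and 9.59 against 12.80 and 12.61 on tumor arrays 1 and 2 (2.95 ± 0.13, adjusted p = 9.63e-05), the spot on tumor array 3 being left out. The falls of the granule proteins Scg3 (normexp -2.22) and Scg5 were lost in the counted-once fit, where 0 neuroendocrine genes remained lower and 1 higher, and without tumor array 2 or 3 the count of lower genes was 3.

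Of 25 tested junction genes 8 (32.0%) were up-regulated and 6 (24.0%) down-regulated, against 4 and 7 in the counted-once fit, which turns the balance. Cldn6, a claudin of embryonic epithelium, measured 8.55, 8.41 and 8.5 in normal lung and 13.59, 13.22 and 13.26 in the tumors (4.87 ± 0.12, adjusted p = 5.36e-06). The connexin Gjb6 measured 6.93, 6.77 and 6.86 against 11.57, 11.18 and 11.25 (4.48 ± 0.12, adjusted p = 6.17e-06). Cldn3, an epithelial claudin, was brighter at the start and measured 14.78, 14.76 and 14.79 against 16.72, 16.82 and 16.81 (2.01 ± 0.05, adjusted p = 6.08e-06). The claudin of endothelium, Cldn5, differed by -1.94 ± 0.05, Cldn11 by -2.97 ± 0.14 and Cldn15, which is also in the mesothelial list, by -2.51 ± 0.15 (normexp -1.45), and all 3 were called lower. Cldn2, a cation pore, was not above background in any tumor and was at least 26.5-fold lower (adjusted p = 1.09e-05, normexp -2.18). The simple epithelial keratins Krt8 and Krt18 rose by 1.07 ± 0.05 and 2.00 ± 0.17 (normexp for Krt18 1.37), and Krt8 was not called with near-identical arrays counted as 1 sample. Epcam and the cadherin Cdh1 measured 0.58 ± 0.06 and 0.28 ± 0.05 higher, and Vim, the mesenchymal intermediate filament, 0.74 ± 0.09 higher, below the threshold in each case. Snai1, a repressor of Cdh1, fell from 12.30, 12.39 and 12.45 to 10.67, 10.59 and 10.69 (-1.73 ± 0.06, adjusted p = 1.46e-05).

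Vessel genes were lower in the tumors. Of 16 tested endothelial genes 13 (81.2%) fell and 1 rose, with a median difference of -2.03, and with marked spots kept 25 of 28 fell. In the counted-once fit 11 remained lower. In bulk tissue, fewer endothelial cells and less RNA per endothelial cell cannot be told apart, here or for any other cell type. Tek, the angiopoietin receptor, measured 17.33, 17.26 and 17.28 in normal lung and 14.53, 14.55 and 14.58 in the tumors (-2.74 ± 0.05, adjusted p = 3.93e-06). Plvap, of the diaphragms of fenestrated and caveolar endothelium, measured 17.57, 17.66 and 17.59 against 15.19, 15.10 and 15.06 (-2.49 ± 0.06, adjusted p = 5.43e-06). Lyve1, a hyaluronan receptor of lymphatic endothelium, measured 13.89, 13.88 and 13.96 against 9.90, 9.86 and 9.74 (-4.08 ± 0.06, adjusted p = 3.45e-06). All normal values of these genes exceeded all tumor values by at least 2 log2 units. Pecam1 could be tested only with marked spots kept, where it fell from 11.52, 11.51 and 11.61 to 10.11, 9.54 and 9.37 (-1.88, adjusted p = 0.000556). The exception was Ramp3, a partner of the adrenomedullin receptor, which rose from 12.36, 12.30 and 12.32 to 13.77, 13.87 and 13.86 (1.5 ± 0.05, adjusted p = 1.37e-05). Notch genes that endothelium uses were among the falls: Dll4 measured 14.94, 14.96 and 14.94 against 12.49 and 12.18 (-2.61 ± 0.11, adjusted p = 7.38e-05), and the Notch targets Heyl and Nrarp fell, with log2 differences of -3.18 and -2.39.

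Stromal lists held both calls and many genes that did not pass. Of 8 tested fibroblast genes 3 (37.5%) fell and 0 rose, and with marked spots kept 7 of 15 fell, with a median of -0.78 against -0.01, while in the counted-once fit 1 of the 3 falls remained and 1 fibroblast gene was called higher. Of 12 smooth muscle and pericyte genes 4 (33.3%) fell and 1 (8.33%) rose, against 16.8% and 11.5% of all genes (2 rose without tumor array 1). Of 21 collagen, laminin and crosslinking genes 4 (19%) fell, near the 16.8% of all genes, and 1 rose, of which 2 and 0 remained in the counted-once fit. Pdgfra, the receptor that marks alveolar fibroblasts, measured 15.24, 15.10 and 15.12 against 12.72, 12.83 and 12.75 (-2.38 ± 0.06, adjusted p = 6.31e-06). Of the smooth muscle calls 0 remained in that fit. Of 25 tested matrix proteases and inhibitors 7 (28.0%) were up-regulated and 5 (20.0%) down-regulated, against 11.5% and 16.8% of all genes, and 4 and 3 of these calls remained in the counted-once fit. The membrane protease Adam9 measured 4.60, 4.33 and 4.53 in normal lung and 7.94, 7.87 and 7.53 in the tumors (3.29 ± 0.14, adjusted p = 2.08e-05, normexp 1.69). Mmp9, a gelatinase of neutrophils and macrophages, fell from 9.61, 9.54 and 9.61 to 6.74, 6.14 and 6.19 (-3.23 ± 0.17, adjusted p = 4.49e-05, normexp -2.57). Timp3, a metalloproteinase inhibitor bound to matrix, fell by 2.12 on the log2 scale (adjusted p = 7.46e-06).

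A list of mesothelial genes, the covering of the lung surface, was added after the values had been seen, and gets no test of its own. Of its 12 tested members 9 were among the down-regulated genes and 0 among the up-regulated ones, with a median difference of -3.03. Msln, mesothelin, measured 13.48, 13.55 and 13.44 in normal lung and 10.59, 10.39 and 10.28 in the tumors (-3.07 ± 0.09, adjusted p = 8.73e-06). Wt1, a transcription factor of mesothelium, measured 11.19, 11.19 and 11.35 against 7.07, 6.15 and 5.91 (-4.86 ± 0.31, adjusted p = 8.67e-05, normexp -4.16). Gpm6a, also a type 1 marker, and Gata4, also of the lung and endoderm list, belong to the mesothelial list as well. It is therefore not separate evidence from those lists. The median of the list was -2.95, -3.01 and -3.02 relative to the normal mean on tumor arrays 1 to 3.

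Many genes of mitosis and some of replication rose, whereas genes that regulate G1 went both ways. Of 39 tested mitosis genes 25 (64.1%) were up-regulated and 0 down-regulated, with a median difference of 1.52, and of 38 genes of S phase and replication 13 (34.2%) and 0, with a median of 0.77. The other 14 mitosis and 25 replication genes were not called. In 3 of the 25 mitosis and 1 of the 13 replication genes that rose no normal array was above background. Where a probe had to be above background on all 6 arrays, 21 mitosis and 11 replication genes rose. Of 15 tested G1 regulators 3 (20.0%) rose and 3 (20.0%) fell, against 11.5% and 16.8% of all genes, so the share that fell was near that of all genes. Of these calls 2 and 1 remained in the counted-once fit, and with marked spots kept 5 of 21 G1 regulators rose and 3 fell. With marked spots kept, 36 of 54 mitosis genes rose. In the counted-once fit 19 mitosis and 6 replication genes remained up-regulated. Cdk1, the kinase that drives entry into mitosis, measured 11.56, 11.61 and 11.67 in normal lung and 14.40, 14.35 and 13.64 in the tumors (2.52 ± 0.22, adjusted p = 0.000279). Its partner Ccnb2 measured 11.21, 11.04 and 11.03 against 13.48, 13.42 and 13.43 (2.35 ± 0.07, adjusted p = 7.48e-06). Cdca3, which marks the inhibitor of mitotic entry for destruction, measured 8.77, 8.69 and 8.74 against 11.64, 11.81 and 11.82 (3.02 ± 0.07, adjusted p = 5.12e-06). The values of Cdk1 were lower on tumor array 3 than on the other tumor arrays, and those of Ccnb2 and Cdca3 were level. Pbk, a mitotic kinase, was not above background in normal lung and at least 9.33-fold higher in the tumors (adjusted p = 1.42e-05, normexp 1.37). Not all members followed: the spindle kinase Aurka measured 8.47, 8.46 and 8.59 against 8.04, 8.14 and 7.94 (-0.46 ± 0.08), and the checkpoint kinase Bub1 7.03, 8.86 and 7.46 against 7.10, 7.52 and 7.52 (-0.40 ± 0.50).

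**Figure D3:**
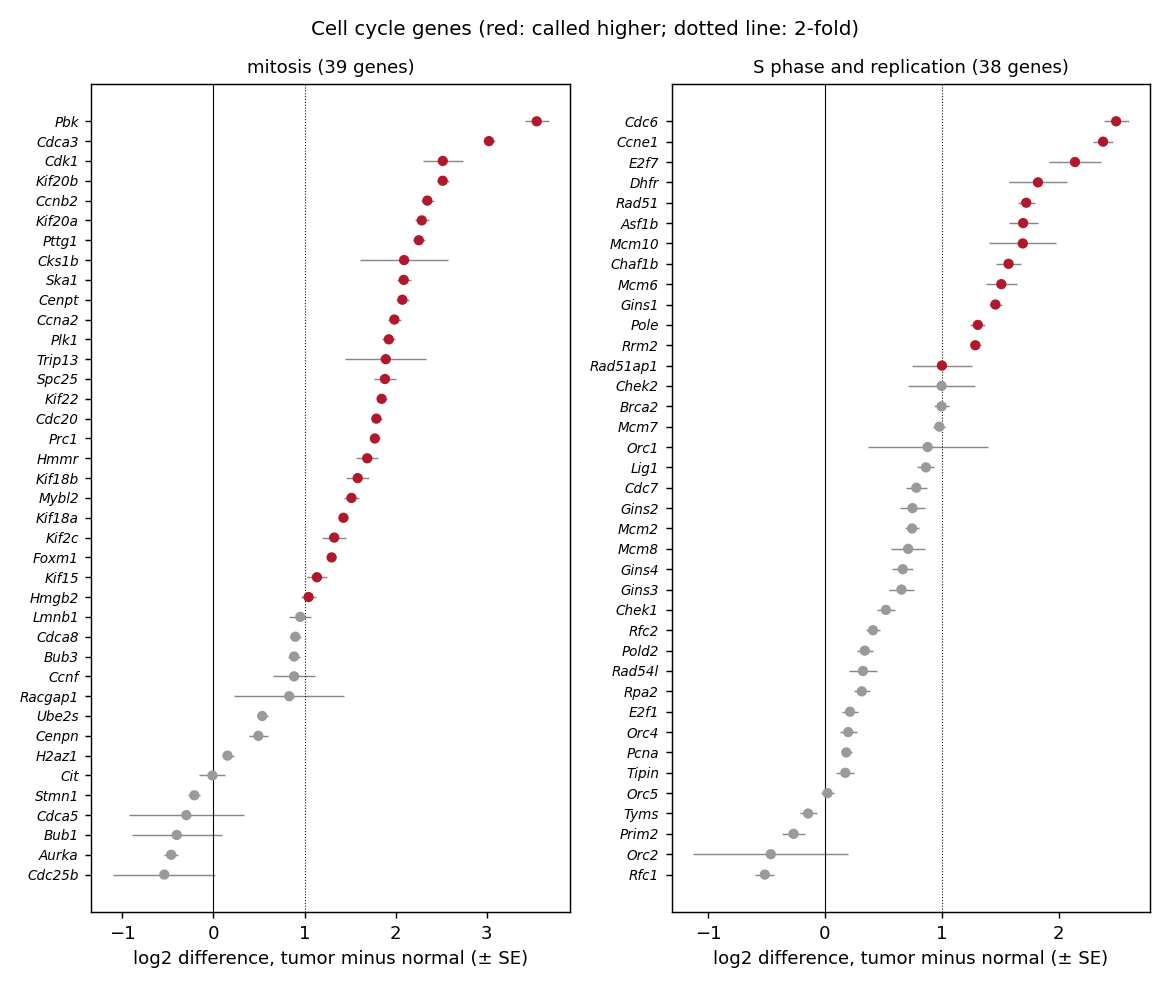
Log2 difference between lung tumor and normal lung, with its standard error (x axis; dotted line, 2-fold), for the 39 tested mitosis genes and the 38 tested genes of S phase and replication (red, up-regulated; grey, not called). Most mitosis genes lie right of the 2-fold line, and no member of either list is called lower. Pbk and Cdca3 are plotted furthest right, but Pbk was not above background in normal lung, so its exact position is uncertain.

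In the replication list the licensing factor Cdc6 measured 6.81, 6.87 and 6.99 in normal lung and 9.19, 9.53 and 9.42 in the tumors (2.49 ± 0.11, adjusted p = 2.26e-05). Ccne1, the cyclin that starts S phase, measured 8.47, 8.59 and 8.56 against 10.94, 10.77 and 11.04 (2.38 ± 0.09, adjusted p = 1.41e-05). Pcna, the sliding clamp of DNA polymerase, was bright in both groups, at 16.18, 16.24 and 16.21 against 16.40, 16.41 and 16.37, and did not pass the threshold (0.18 ± 0.05). Upstream of these genes, Ccnd1, the G1 cyclin, measured 10.51, 10.62 and 10.56 against 12.83, 13.08 and 13.29 (2.51 ± 0.13, adjusted p = 3.74e-05). The inhibitor Cdkn1c fell from 14.05, 14.41 and 14.43 to 11.82, 11.70 and 11.80 (-2.53 ± 0.12, adjusted p = 3e-05), whereas Cdkn2a rose from 5.48, 5.09 and 5.14 to 7.04, 7.04 and 7.05 (1.81 ± 0.11, adjusted p = 8.46e-05, normexp 1.04). The cyclins Ccne1 and Ccnd1 thus both rose, whereas the inhibitors Cdkn1c and Cdkn2a moved in opposite directions. Cdkn1a, another inhibitor of these kinases, measured 0.92 ± 0.05 lower and was just inside the 2-fold limit.

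Promoters of mitotic genes are known to carry a cell cycle homology region (CHR) near the start site, often next to CCAAT boxes. The sequences of 3 up-regulated mitosis genes are shown and, for contrast, that of the replication helicase subunit Mcm6, because members of both lists rose. Each runs 5′ to 3′ on the strand of the gene, from 250 bases before to 50 bases after the RefSeq start in GRCr8. Ccnb2 is at chr8:79981609-79981908 (minus strand), Cdk1 at chr20:19265043-19265342 (plus strand), Cdc20 at chr5:137255750-137256049 (minus strand) and Mcm6 at chr13:42404303-42404602 (minus strand). Capitals mark the letters TTTGAA or TTCAAA for the CHR and CCAAT or ATTGG for the CCAAT box, the second of each pair being the same motif on the other strand.
Ccnb2: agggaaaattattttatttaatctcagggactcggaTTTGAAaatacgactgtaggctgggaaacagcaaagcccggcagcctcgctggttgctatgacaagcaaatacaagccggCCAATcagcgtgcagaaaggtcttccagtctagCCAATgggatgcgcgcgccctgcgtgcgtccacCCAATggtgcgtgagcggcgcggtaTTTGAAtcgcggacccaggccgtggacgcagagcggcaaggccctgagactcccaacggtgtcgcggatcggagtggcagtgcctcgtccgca
Cdk1: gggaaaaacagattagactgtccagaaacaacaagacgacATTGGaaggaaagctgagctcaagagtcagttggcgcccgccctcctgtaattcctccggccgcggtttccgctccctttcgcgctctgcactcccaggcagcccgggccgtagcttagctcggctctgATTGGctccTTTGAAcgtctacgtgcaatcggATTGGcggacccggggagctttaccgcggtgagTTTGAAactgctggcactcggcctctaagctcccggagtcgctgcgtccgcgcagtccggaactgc
Cdc20: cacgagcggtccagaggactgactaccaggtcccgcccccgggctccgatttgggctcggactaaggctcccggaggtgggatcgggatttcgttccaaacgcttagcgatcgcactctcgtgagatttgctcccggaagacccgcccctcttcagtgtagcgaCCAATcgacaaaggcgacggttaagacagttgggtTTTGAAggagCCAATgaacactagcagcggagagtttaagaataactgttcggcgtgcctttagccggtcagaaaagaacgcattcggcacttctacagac
Mcm6: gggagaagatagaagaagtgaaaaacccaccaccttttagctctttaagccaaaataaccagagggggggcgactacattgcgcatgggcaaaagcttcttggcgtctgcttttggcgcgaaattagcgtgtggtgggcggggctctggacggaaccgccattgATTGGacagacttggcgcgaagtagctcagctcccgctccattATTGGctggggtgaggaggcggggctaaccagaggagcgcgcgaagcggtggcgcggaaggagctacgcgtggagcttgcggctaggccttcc
The 2 motifs did not overlap in these 4 windows. Cdc20, an activator of the anaphase ubiquitin ligase, measured 11.24, 11.26 and 11.33 in normal lung and 12.99, 13.09 and 13.12 in the tumors (1.79 ± 0.06, adjusted p = 1.08e-05). Mcm6 measured 11.63, 11.50 and 11.80 against 12.93, 13.27 and 13.26 (1.51 ± 0.13, adjusted p = 0.000285).

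Of the 25 up-regulated mitosis genes 21 had a promoter in the RefSeq table. Both motifs were found in 13 of these 21 (61.9%), in 4 of 13 mitosis genes that were not called (30.8%) and in 7.25% of all 27457 promoters of the same 300 bases. The CHR alone was present in 14 of 21 (66.7%) against 18.1% of all promoters, and the CCAAT box in 15 of 21 (71.4%) against 37.7%. In the mitosis genes that were not called the shares were 6 of 13 (46.2%) for the CHR and 9 of 13 (69.2%) for the CCAAT box, the latter close to that of the called genes. Among the up-regulated replication genes with a promoter, 1 of 9 held the CHR letters (11.1%) and 7 of 9 the CCAAT letters (77.8%). In the replication genes that were not called these were 3 of 20 (15%) and 9 of 20 (45%). The letters TTTCCCGC or GCGGGAAA, searched as an E2F motif, were in 0 of 9 up-regulated and 4 of 20 uncalled replication genes. They were in 0 of 21 up-regulated mitosis genes and 1.03% of all promoters. Over all up-regulated genes with a promoter the CHR share was 14.9% and over all down-regulated genes 16.2%. A match describes the letters of the window and is not a measured site.

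The immune lists went different ways. Of 12 tested genes of MHC class II presentation 7 (58.3%) rose and 0 fell, and of 13 B cell and plasma cell genes 6 (46.2%) rose and 1 fell, of which 5 and 0 remained in the counted-once fit. In 2 of the 7 class II genes and 1 of the 6 B lineage genes that rose no normal array was above background. Where a probe had to be above background on all 6 arrays, 5 class II genes and 5 B lineage genes rose. Of 22 T cell and NK cell genes 0 rose and 12 (54.5%) fell, with a median of -1.1. RT1-DMa, which loads peptides onto MHC class II, measured 13.17, 13.13 and 13.11 in normal lung and 14.64, 14.65 and 14.65 in the tumors (1.51 ± 0.05, adjusted p = 9.35e-06). Its partner RT1-DMb measured 14.60, 14.68 and 14.59 against 16.03, 15.92 and 15.97 (1.35 ± 0.06, adjusted p = 2.27e-05). Ciita, the master activator of these genes, was not above background in normal lung and measured 4.44, 7.68 and 7.51 in the tumors, at least 6.46-fold higher (adjusted p = 0.0119, and 0.229 with near-identical arrays counted as 1 sample, normexp 1.24). Tumor array 1 was thus well below the other two for Ciita, while for the RT1-DM genes the 3 tumor arrays were level. In the counted-once fit 4 of the class II genes remained up-regulated. Type 2 cells, B cells and macrophages all present by MHC class II. Of 19 tested macrophage genes 2 (10.5%) rose and 1 (5.26%) fell, against 11.5% and 16.8% of all genes. The share that rose was thus near that of all genes, and 1 rise and 1 fall were left in the counted-once fit.

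The B lineage genes that rose included those of antibody-secreting cells. Mzb1, a chaperone of antibody assembly, measured 10.93, 10.86 and 11.04 in normal lung and 13.88, 13.72 and 13.72 in the tumors (2.83 ± 0.08, adjusted p = 6.47e-06). Tnfrsf17, the survival receptor of plasma cells, measured 8.77, 8.75 and 8.77 against 11.14, 10.85 and 10.90 (2.20 ± 0.09, adjusted p = 1.85e-05). Pou2af1, a coactivator of B cell transcription, measured 11.19, 11.25 and 11.30 against 13.77, 13.70 and 13.70 (2.47 ± 0.06, adjusted p = 4.85e-06). The tumor values of each gene lay close together and above all its normal values. Cxcl13, the chemokine that draws B cells, measured 8.11, 8.09 and 8.33 against 11.40, 11.34 and 11.35 (3.18 ± 0.08, adjusted p = 5.59e-06). Ccl28, a mucosal chemokine that attracts antibody-secreting cells, measured 4.85, 4.58 and 4.58 against 8.65, 8.5 and 8.44 (3.86 ± 0.11, adjusted p = 6.44e-06, normexp 2.14). Across 39 tested chemokine, cytokine and receptor genes 10 (25.6%) rose and 8 (20.5%) fell, of which 7 and 4 remained in the counted-once fit, and with marked spots kept 11 rose and 15 fell.

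The lymphocyte genes that fell included those of killing by cytotoxic cells. The granzyme Gzmc measured 13.63, 13.50 and 13.61 in normal lung and 10.78, 10.43 and 10.42 in the tumors (-3.04 ± 0.12, adjusted p = 1.61e-05). Nkg7, a protein of cytotoxic granules, measured 15.09, 15.02 and 15.04 against 13, 12.84 and 12.70 (-2.21 ± 0.09, adjusted p = 1.87e-05). Perforin, Prf1, measured 11.03, 10.97 and 10.94 against 9.01, 8.63 and 8.55 (-2.25 ± 0.13, adjusted p = 6.62e-05). The pan-T cell gene Cd3e differed less, with 11.40, 11.33 and 11.31 against 10.64 and 10.55 (-0.75 ± 0.07), and did not pass the threshold. In the counted-once fit 7 of the 12 lymphocyte falls remained. Interferon-induced genes were lower in 9 of 24 tested and higher in 1 (0 without tumor array 1 or normal array 2), among the lower ones Rsad2, an antiviral enzyme, at 13.65, 13.60 and 13.57 against 11.66, 11.59 and 11.62 (-1.99 ± 0.05, adjusted p = 6.23e-06). In that fit 3 of the 9 and 0 of the 1 remained. Mast cell and eosinophil genes fell in 6 of 14 tested (42.9%), including the chymase Cma1 (-1.70 ± 0.05, adjusted p = 7.48e-06), and 2 remained.

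Blood and liver-type transcripts were also lower in the tumors. Of 20 tested red blood cell and platelet genes 15 (75%) fell and 0 rose (1 rose without tumor array 1), with a median of -2.24, and 13 remained in the counted-once fit. Alas2, the first enzyme of haem synthesis in red cell precursors, measured 14.27, 14.25 and 14.25 in normal lung and 11.19, 11.12 and 11.21 in the tumors (-3.09 ± 0.05, adjusted p = 3.58e-06). Ahsp, the chaperone of alpha haemoglobin, measured 12.64, 12.64 and 12.58 against 8.64, 8.68 and 8.55 (-3.99 ± 0.06, adjusted p = 3.23e-06). The globin Hbb differed by only -0.57 ± 0.05, with 17.56, 17.63 and 17.59 against 16.97, 17.06 and 17.03. The part of retained blood in the other lists was not tested.

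Of 25 tested liver-type secreted protein genes 16 (64.0%) fell and 2 rose, and 12 and 2 remained in the counted-once fit. A list of hepatocyte enzymes and major urinary proteins, added after the values had been seen, had 22 of its 26 tested members (84.6%) among the down-regulated genes, with a median difference of -4.54, and 20 in the counted-once fit. In 9 of the 22 no tumor array was above background, and where a probe had to be above background on all 6 arrays the count was 12. Ttr, the thyroid hormone carrier, measured 11.56, 11.51 and 11.60 in normal lung and 6.20, 5.64 and 5.66 in the tumors (-5.73 ± 0.17, adjusted p = 7.59e-06, normexp -4.49). Tdo2, a liver enzyme of tryptophan breakdown, measured 9.56, 9.44 and 9.49 against 4.28, 4.4 and 4.09 (-5.24 ± 0.09, adjusted p = 3.93e-06, normexp -3.27). The urinary protein Mup5 measured 12.55, 12.46 and 12.49 against 7.53, 7.48 and 7.47 (-5.01 ± 0.05, adjusted p = 1.7e-06). These are products of liver that lung is not known to make at such levels, and they were present on all 3 normal arrays at nearly equal values. The list's median relative to the normal mean was -4.27, -4.62 and -4.75 on tumor arrays 1 to 3. Their source was not tested. Albumin, Alb, measured 13.84, 13.85 and 13.89 against 9.21, 10.96 and 11.16 (-3.41 ± 0.54, adjusted p = 0.00287, and 0.104 in the counted-once fit). Exceptions were Fetub, a protease inhibitor, which rose from 15.66, 15.70 and 15.65 to 17.37, 17.23 and 17.30 (1.63 ± 0.06, adjusted p = 1.31e-05), and in the complement list Cfi, which inactivates C3b and rose by 2.45 ± 0.06 (adjusted p = 5.72e-06).

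**Figure D4:**
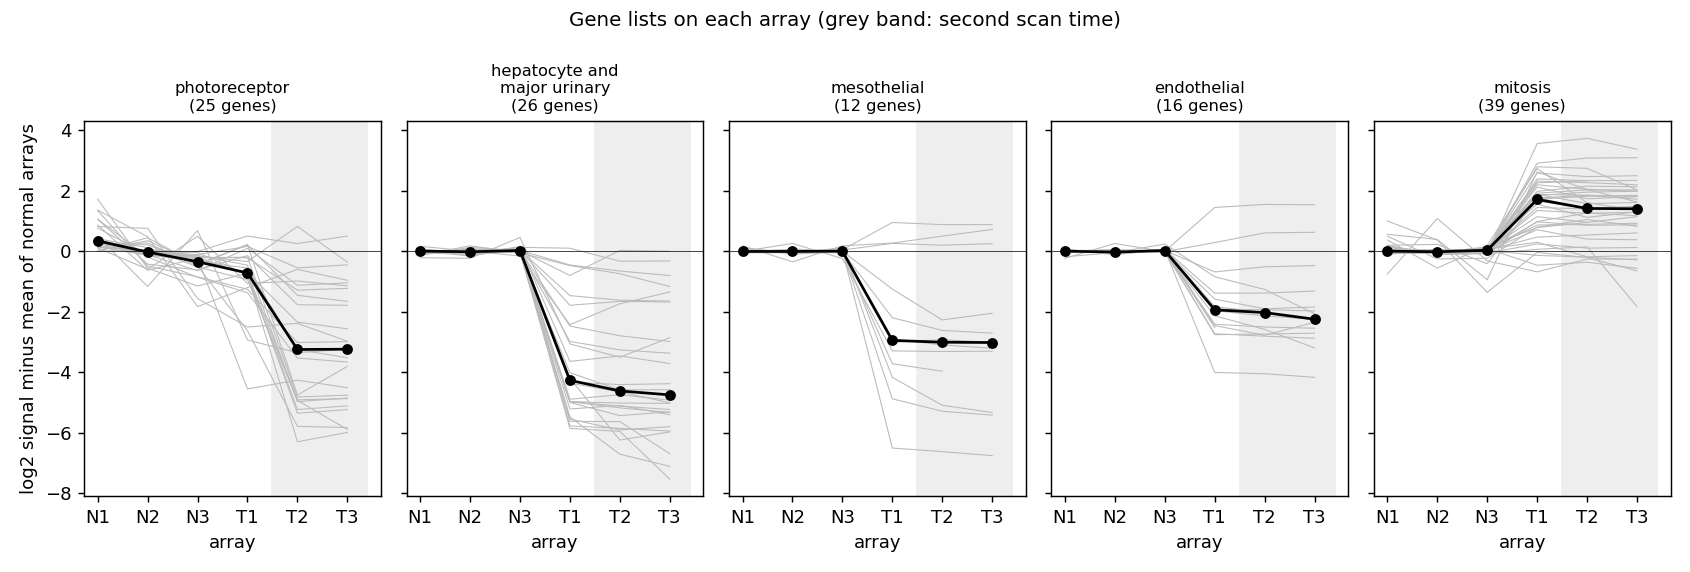
Log2 signal minus the normal mean on each array (x axis, normal arrays 1 to 3 and tumor arrays 1 to 3) for photoreceptor, hepatocyte, mesothelial, endothelial and mitosis genes (grey lines, single genes; black line, median; grey band, arrays of the second scan time). Hepatocyte, mesothelial and endothelial medians are low on all 3 tumor arrays, whereas the photoreceptor median is -0.72 on tumor array 1 and -3.25 and -3.24 on arrays 2 and 3.

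Detoxification enzymes fell more often than they rose. Of 39 tested phase 1 enzymes 17 (43.6%) fell and 3 rose, with a median of -0.76, and in the counted-once fit 13 and 0 remained. Cyp2e1, which also oxidizes small nitrosamines, measured 15.75, 15.75 and 15.78 in normal lung and 11.09, 10.88 and 10.91 in the tumors (-4.80 ± 0.07, adjusted p = 3.28e-06). Cyp2b1, a lung cytochrome able to activate NNK, could be tested only with marked spots kept and fell from 15.34, 15.36 and 15.44 to 14.23, 14.15 and 14.27 (-1.16, adjusted p = 3.6e-05). Cyp2a3, the rat lung enzyme most active on NNK, was also read only with marked spots kept, at 12.61, 12.60 and 12.48 against 12.22, 12.21 and 12.13, which is below the threshold (-0.38). The adduct repair gene Mgmt measured 12.46, 12.58 and 12.60 against 12.55, 12.13 and 12.12 (-0.28 ± 0.14, adjusted p = 0.123). Several of the enzymes that fell, Cyp2c11 (normexp -3.55) among them, are liver enzymes and also stand in the hepatocyte list.

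Phase 2 and carbonyl enzymes were lower in 9 of 36 tested (25%) and higher in 4 (11.1%), against 16.8% and 11.5% of all genes, and 6 and 3 remained in the counted-once fit. The glutathione transferases Gsta3 and Gsta5, which conjugate electrophiles, rose by 1.95 ± 0.06 and 2.57 ± 0.09 (adjusted p = 9.05e-06 and 4.38e-05). Cbr3, a carbonyl reductase, measured 12.99, 12.93 and 12.95 in normal lung and 15.09, 15.05 and 14.99 in the tumors (2.09 ± 0.05, adjusted p = 5.63e-06). The estrogen sulfotransferase Sult1e1 was not above background in the tumors and at least 21.7-fold lower (adjusted p = 4.18e-06, normexp -1.86). Targets of the oxidant sensor Nrf2 rose in 6 of 34 tested (17.6%) and fell in 4 (11.8%), the latter below the 16.8% of all genes, with a median of 0.00. Of these the drug exporter Abcc1 measured 7.37, 6.52 and 6.74 against 10 and 9.83 on tumor arrays 1 and 3 (3.03 ± 0.28, adjusted p = 0.000935), and the classical target Nqo1, read with marked spots kept, differed by 0.72 and did not pass. Of the 6 rises 1 remained, and of the 4 falls 3, in the counted-once fit.

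**Figure D5:**
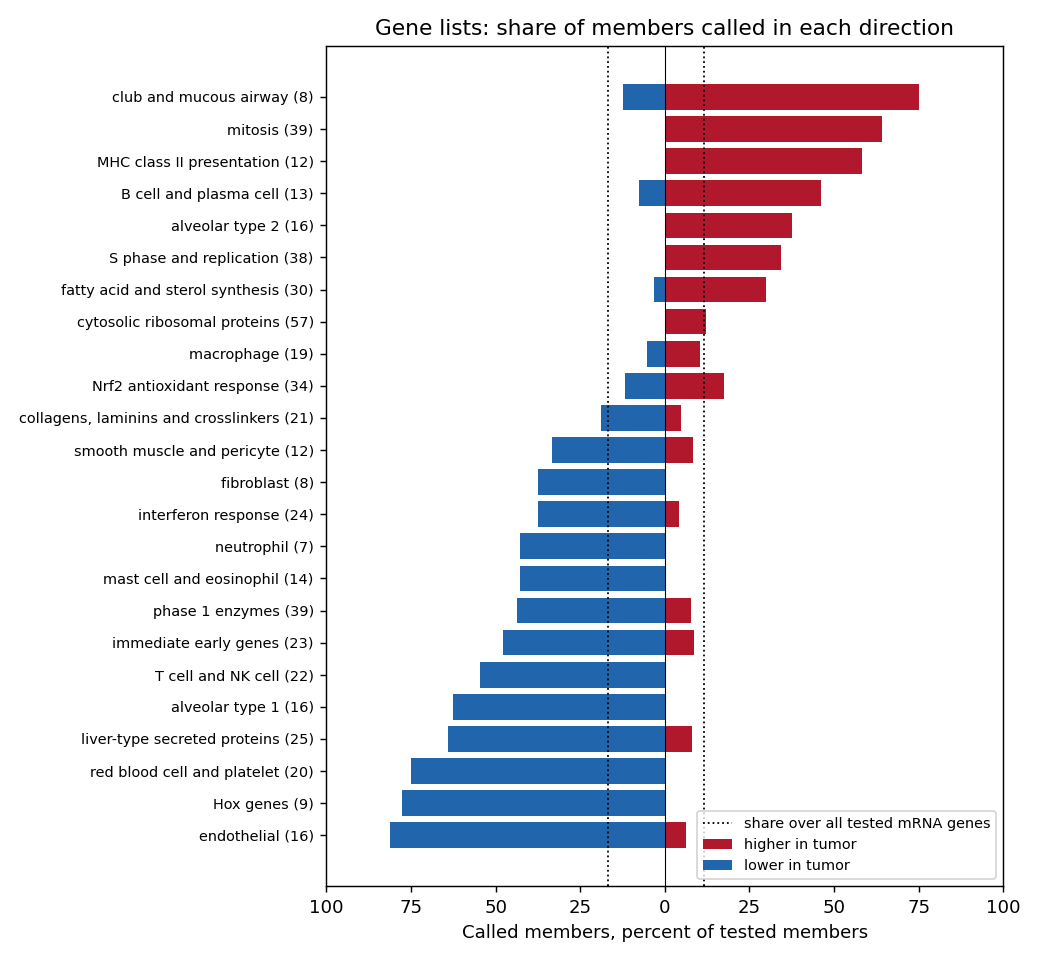
Share of the tested genes of chosen lists that was up-regulated (bars to the right) or down-regulated (bars to the left) in the tumors, in percent. The number tested is in brackets, and dotted lines mark the shares over all genes, 11.5% and 16.8%. Not all lists are drawn: junction, neuroendocrine, Wnt, prostaglandin and glycolysis genes are among those given in the text only. Mitosis, MHC class II and secretory airway genes extend to the right, and endothelial, Hox, red blood cell and type 1 genes to the left.

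Genes of growth signalling changed in both directions. Of 20 tested lung cancer oncogenes and suppressors 5 (25%) rose, against 11.5% of all genes, and 0 fell (1 without normal array 3), and Ccnd1 and Cdkn2a were among the 5. Of these 5 rises 2 remained in the counted-once fit. Egfr, the epidermal growth factor receptor, measured 5.20, 4.74 and 5.08 in normal lung and 6.47, 5.94 and 6.17 in the tumors (1.19 ± 0.18, adjusted p = 0.00263, and 0.0857 in the counted-once fit). Its difference was 0.56, and not called, after normexp background correction. Its ligand Areg, read with marked spots kept, rose from 11.70, 11.78 and 11.76 to 14.36, 14.21 and 14.26 (2.53, adjusted p = 4.48e-06), while the ligand Egf fell from 12, 11.85 and 11.93 to 10.29 and 9.92 (-1.82 ± 0.14, adjusted p = 0.000451). Ligands of the same receptor thus moved in opposite directions. Hras fell by 1.23 (adjusted p = 0.000545), a call lost in the counted-once fit. With marked spots kept Myc, a transcription factor of growth, rose from 12.86, 12.93 and 12.79 to 14.15, 13.79 and 13.93 (1.1, adjusted p = 0.000388).

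Immediate early genes fell more often than they rose. Of 23 tested immediate early genes 11 (47.8%) fell and 2 rose, with a median of -0.97, and 6 falls remained in the counted-once fit. Without tumor array 1 or 2 the rises were 1. The 2 that rose, Fosl1 and Egr2, had log2 differences of 1.40 ± 0.24 and 1.1, and both calls were lost in the counted-once fit. Normexp background correction also ended the call of Fosl1 (0.69), and a 75th percentile shift that of Egr2 (0.95). Klf4, an early gene that endothelium and epithelium both use, measured 16.84, 16.82 and 16.75 in normal lung and 14.74, 14.74 and 14.78 in the tumors (-2.05 ± 0.05, adjusted p = 5.5e-06). Fos measured 6.57, 6.44 and 6.60 against 4.55, 5.01 and 4.36 (-1.90 ± 0.18, adjusted p = 0.000387), a call lost after normexp background correction (-0.83). The ERK phosphatase Dusp1 and the Ras pathway inhibitor Spry4 fell, with log2 differences of -1.73 ± 0.05 and -2.22 ± 0.06. Over 21 tested genes of Ras signalling and ERK feedback 5 (23.8%) rose and 3 (14.3%) fell, the latter near the 16.8% of all genes, with a median of 0.09. With near-identical arrays counted once, 3 rises and 2 falls remained. Rasa2, which switches Ras off, rose by 2.59 ± 0.19 (adjusted p = 0.000154), but was not called after normexp background correction (0.80).

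Among developmental pathways, 8 of 29 tested Wnt genes (27.6%) fell and 4 (13.8%) rose, against 16.8% and 11.5% of all genes, and 6 and 3 remained in the counted-once fit. The ligand Wnt10a rose from 4.85, 4.82 and 4.74 to 8.87, 8.56 and 8.64 (3.88 ± 0.10, adjusted p = 5.43e-06, normexp 2.41), and Wnt3 from 4.50, 4.10 and 4.24 to 7.01, 6.62 and 6.47 (2.42 ± 0.18, adjusted p = 0.000142, normexp 1.04). The ligand Wnt5b went the other way, from 12.02, 11.97 and 12.06 to 10.37, 10.06 and 10.20 (-1.81 ± 0.09, adjusted p = 3.93e-05). Of 18 tested Notch and Hedgehog genes 6 (33.3%) fell and 1 rose, of which 3 and 0 remained in that fit. Of 24 TGF-beta and BMP genes 6 (25%) fell and 4 (16.7%) rose, the latter count being 2 without tumor array 2, and in the counted-once fit 1 fall and 1 rise remained. Hox genes and their cofactors, which keep the positional identity of lung mesenchyme and other tissues, fell in 7 of 9 tested, and 4 remained in the counted-once fit. The cofactor Meis1 measured 14.73, 14.71 and 14.65 against 12.54, 12.60 and 12.54 (-2.14 ± 0.05, adjusted p = 5.42e-06), and Hoxb7 9.26, 9.41 and 9.28 against 6.86, 6.96 and 6.79 (-2.45 ± 0.08, adjusted p = 8.83e-06). Of the imprinted growth genes 4 of 11 fell and 1 rose, of which 3 and 0 remained, with Plagl1, a zinc finger growth suppressor, from 13.98, 13.85 and 13.89 to 10.91, 10.86 and 10.77 (-3.06 ± 0.07, adjusted p = 4.63e-06).

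Prostaglandin genes changed at several steps of the pathway. Ptges, the inducible synthase that makes prostaglandin E2, measured 5.91, 5.55 and 6.02 in normal lung and 11.86, 11.69 and 11.68 in the tumors (5.92 ± 0.14, adjusted p = 5.24e-06, normexp 4.93). Pla2g10, a secreted phospholipase that frees arachidonic acid, measured 6.19, 6.38 and 6.29 against 11.44, 11.44 and 11.32 (5.12 ± 0.07, adjusted p = 3.23e-06, normexp 4.42). Hpgd, which inactivates prostaglandin E2, was read with marked spots kept and fell from 14.14, 14.29 and 14.40 to 11.01, 11.10 and 11.11 (-3.21, adjusted p = 4.79e-06). Other members went the other way within the same steps: the secreted phospholipase Pla2g2a fell (-2.28 ± 0.18, normexp -1.32), as did Ptgds (-2.61 ± 0.23) and Ptgis (-2.65 ± 0.24, normexp -1.20), the synthases of prostaglandin D2 and of prostacyclin. The calls of Pla2g2a and Ptgis were lost in the counted-once fit. Slco2a1, the importer that precedes breakdown, fell from 6.41, 6.29 and 6.98 to 4.32, 4.12 and 4.23 (-2.34 ± 0.20, adjusted p = 0.000247), a call lost after normexp background correction (-0.86). The inducible cyclooxygenase Ptgs2 was not above background on any of the 6 arrays and was not tested. Over the list of 24 tested genes 5 (20.8%) rose and 7 (29.2%) fell, against 11.5% and 16.8% of all genes. In the counted-once fit 5 rises and 4 falls remained, which turns the balance.

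Lipid synthesis genes rose in 9 of 30 tested (30.0%) and fell in 1, with 4 rises and 0 falls left in the counted-once fit. The lower count was 2 without tumor array 1 and 0 when any other array was left out. Slc25a1, which exports citrate from mitochondria for fatty acid synthesis, measured 7.75, 7.53 and 7.48 in normal lung and 11.27, 11.20 and 11.30 in the tumors (3.67 ± 0.09, adjusted p = 5.29e-06). Dhcr7, the last enzyme of cholesterol synthesis, rose by 1.76 ± 0.07 (adjusted p = 2.02e-05), whereas the desaturase Scd, bright in both groups, differed by 0.03 ± 0.08. Of 44 tested respiratory chain genes 1 (2.27%) rose and 2 (4.55%) fell (3 rose without tumor array 2 or 3, and 2 without normal array 1 or 3), shares below those of all genes, and 0 and 2 remained in the counted-once fit. Of 29 glycolysis and pentose phosphate genes 3 (10.3%) rose and 5 (17.2%) fell, with 8 lower without normal array 3, and these shares were near the 11.5% and 16.8% of all genes. Of these calls 1 rise and 3 falls remained in the counted-once fit. Slc16a3, the lactate exporter, rose from 12.49, 12.42 and 12.41 to 14.46, 14.39 and 14.44 (1.99 ± 0.05, adjusted p = 6.1e-06), while lactate dehydrogenase Ldha differed by 0.61 ± 0.05. Of 57 tested ribosomal protein genes 7 (12.3%) rose, near the 11.5% of all genes, and 0 fell, and 0 of the 7 remained in the counted-once fit. Actb, often used as a reference gene, differed by 0.41 ± 0.08.

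Of 33 tested ion and water transport genes 8 (24.2%) were up-regulated and 6 (18.2%) down-regulated, against 11.5% and 16.8% of all genes, so the lower share was near that of all genes. Of these calls 5 and 3 remained in the counted-once fit. Cftr, the chloride channel of secretory epithelium, measured 10.79, 10.84 and 10.85 in normal lung and 14.42 and 14.41 in the tumors, the spot on tumor array 3 being left out (3.59 ± 0.06, adjusted p = 7.44e-06). Slc4a4, a bicarbonate cotransporter, measured 9.36, 9.42 and 9.50 against 11.47, 11.67 and 11.85 (2.24 ± 0.11, adjusted p = 3.31e-05). Slc26a3, a chloride and bicarbonate exchanger best known from the colon, fell from 12.27, 12.34 and 12.33 to 3.53, 3.5 and 2.72 (adjusted p = 5.7e-06). It was well above background on 1 of the 3 tumor arrays, so the size of the fall is uncertain: the log2 difference was -9.06 here and -5.98 after normexp background correction, and called in both.

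Tumor array 1 was finally set beside tumor arrays 2 and 3, with no test, since 1 tumor stood against near-identical arrays of another scan time, and tumor and scan time cannot be told apart. Over 6676 genes well above background on all 3, tumor array 1 was at least 2-fold higher than the mean of the others in 161 and at least 2-fold lower in 138, while arrays 2 and 3 differed 2-fold in 75. Among the genes that differed were those of photoreceptors, the light-sensing cells of the retina. The retinoid transporter Abca4 measured 11.16, 10.61 and 10.49 in normal lung, 9.99 on tumor array 1, and 5.52 and 5.64 on tumor arrays 2 and 3. It was therefore near the normal level on the array that shared the normal scan time and more than 4 log2 units lower on the others. Of 7580 genes, 60 were within 2-fold of normal on tumor array 1 and at least 4-fold lower on both other tumor arrays, and 10 of the 60 belong to a photoreceptor list that was added after the values had been seen. Of its 25 tested members 12 were called lower in the comparison of tumor with normal lung, against 3 with the scan time as a block, 3 in the counted-once fit and 20 without tumor array 1. Without tumor array 2 or 3 there were 3 in each case, and without normal array 1, 2 or 3 there were 3, 4 and 8. In the other direction, 20 genes were normal on tumor array 1 and at least 4-fold higher on arrays 2 and 3. The lymphocyte antigen Cd52 measured 6.14, 5.86 and 6.02 in normal lung, 5.34 on tumor array 1, and 8.28 and 8.35 on the others. Spp1, osteopontin, a secreted matrix protein, measured 4.52, 4.39 and 4.44, then 5.44, and 7.33 and 7.51. With normexp, the differences between tumor and normal lung were -2.72 for Abca4 and 1.10 for Spp1, against -3.70 and 2.31.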

How the data were processed

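Lung RNA was labelled with Cy3 and hybridised to the Arraystar rat lncRNA array, and the arrays were read with Agilent Feature Extraction 10.5.1.1. The deposited intensity values are the processed signals of that software per the file headers, background-subtracted and not normalized between arrays. The deposited log2 values were quantile-normalized over 8 arrays by the authors and served as an alternative.

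Here, the log2 processed signals of all probes were quantile-normalized over the 6 lung arrays. Probes well above background on 3 or more arrays, with values on 2 or more arrays of each group, were fitted in limma 3.58.1 (R 4.3.3) with lmFit and eBayes. The adjusted p of this main fit is the Benjamini-Hochberg value over 12471 probes, mRNAs and lncRNAs together. Other fits tested other numbers of probes. Among mRNA probes these were 11432 with marked spots kept and 8497 in the counted-once fit, against 8637 in the main fit. A gene was represented by its tested probe with the highest mean. Of 152 genes with several tested probes, 19 had probes that differed in their call and 0 had opposite calls. Of the mRNA probes, 14274 (93.2%) were matched by accession to a current RefSeq symbol, and the others kept the array's name. Promoters came from RefSeq (GRCr8), whose coordinates were not mixed with those of the array. Plots were drawn with matplotlib 3.10.9. The scripts were tested on simulated data.

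The labels give both groups the same replicate numbers and the study calls the normal tissues matched, so the numbers were taken to mark pairs. The main fit had the group as its only term, so its standard errors and adjusted p-values are unpaired. The pairs entered only the fit with the replicate number as a block and the paired t-test, both given below. Over 7752 probes, the deviations of same-numbered arrays from their group means had correlations of 0.144, -0.0263 and 0.151. Those of differently numbered arrays ranged from -0.179 to 0.122.

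Genes were named if they had one of the 15 largest changes in a direction, one of the 4 largest called changes of a list or one of the 8 largest bounded changes or differences of tumor array 1, or if they were on a list of lung, tumor and reference genes. Aurka, Bub1, Cav1, Ccnb2, Cd74, Cdc20, Cldn5, Clic5, Ctsh, Hbb, Hopx, Mcm6, Msln, Nkg7, Plvap, RT1-DMb and Scd fell outside the rule and were chosen after their values were seen. The members and lists were chosen with earlier results of these data known, and the photoreceptor, mesothelial and hepatocyte lists were added after the values were seen. Some genes measured on the array are not reported here.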

Additional observations from a re-analysis of the deposited data

How the results depend on the processing

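Counting the near-identical arrays as 1 sample lowered the 997 higher and 1451 lower mRNA probes to 500 and 725, where fewer samples were fitted, and at an unadjusted p the counts were 951 and 1304. Leaving out 1 array gave 890 to 1010 higher and 1282 to 1552 lower probes. With the replicate number as a block 964 were higher and 1464 lower, and 2378 of the 2448 calls were shared. The block ended the calls of, among others, Fads2 (adjusted p = 0.0715), Cyp2g1 (0.0563) and Psmb2 (0.0620). Normexp background correction gave 677 and 969, the methods' paired t-test 689 and 1111 after Benjamini-Hochberg adjustment, the authors' values 1348 and 1642, and quantile normalization over mRNA probes alone 1227 and 1297. In this last setting 48.6% of the calls were higher, against 40.7%. No call had the opposite direction in any setting (0 in each). Larger differences were found for Retnla (5.07), Tek (-3.37) and Dusp1 (-2.36) when all 8 arrays were quantile-normalized together.

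Single log2 differences that changed sign were not those of called genes, and the cause was not tested. Scgb1a1 was at 0.019 after a 75th percentile shift. With the scan time as a block, and equally with tumor array 1 alone, Mgmt was at 0.0046, Tulp1 at 0.22, Cyp4a1 at -0.90, Cd52 at -0.67, Ptk2 at -0.29 and Sfr1 at -0.24. Over the arrays left out in turn, the difference ranged from -1.37 to 0.88 in Efcab2, from -1.12 to 0.083 in Erg and from -0.78 to 0.50 in Vsnl1, one end of each range being without tumor array 1. Signal over background limits the dim genes, and those with no array well above background in 1 group have only a bound.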
